A study of Mus musculus with 8 samples.

Results

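Tap1, Psmb8 and Ifi35 are interferon-induced genes, and the first 2 of them act in the processing of antigens for MHC class I. They were taken as listed genes, each measured by 1 spot, and make up 3 of 8653 named genes and 3 of 20794 spots on the arrays. Tap1 had positive log2 ratios on 7 of 8 arrays, whereas Ifi35 had negative ratios on all 8 and Psmb8 on 7 of 8. Whether the mutant or the wildtype pool was on top of each ratio is not known, so these signs give no direction of change. Of the 18797 spots with values on all 8 arrays, 24.1% were above the array median on at least 7 arrays. Below it on all 8 arrays were 8.69%, and the share below it on 7 was not taken. On average all 3 genes lay farther from 0 on the arrays with the mutant in Cy3, as spots did in general. The typical distance of a spot from its array's median was 0.659 to 0.972 there and 0.361 to 0.486 with the mutant in Cy5.

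The brains of 4 male mice of genotype ADAR-/-/GluR-BR/R, 19 weeks old, were each hybridised on 2 arrays of opposite dye against 1 RNA pool made from the brains of 4 age-matched wildtype males. ADAR2, encoded by Adarb1, is an adenosine deaminase that edits double-stranded RNA. GluR-BR/R denotes alleles of the AMPA receptor subunit GluR-B (Gria2) that encode the edited, arginine form. Every mutant carried both changes and the pool neither, so loss of ADAR2 and the receptor alleles cannot be told apart in these ratios. The pool is 1 control sample, so wildtype mice contribute no spread to the tests. The labelling protocol in the labels gives a different number of control animals from the pool's own description.

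Cells cut cytosolic proteins into peptides in the proteasome, pump the peptides into the endoplasmic reticulum and load them there onto MHC class I molecules. Interferons raise the expression of this machinery, and loss of RNA editing can let cellular double-stranded RNA trigger interferon production. That function is mainly ascribed to ADAR1, the product of Adar, while ADAR2 is best known for recoding neuronal transcripts. Tap1 encodes a subunit of the peptide transporter TAP. Psmb8 encodes a catalytic subunit of the immunoproteasome, where it takes the place of the constitutive subunit Psmb5. Ifi35 encodes an interferon-induced leucine zipper protein that binds Nmi.

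Tap1 and Psmb8 are neighbours in the MHC, and Tap1 shares its start region with Psmb9, another immunoproteasome subunit transcribed in the opposite direction. In the RefSeq sequences for GRCm38.p6, 275 bases are common to the promoter windows of Tap1 and Psmb9 (each 250 bases before and 50 after the start). The stretch between both starts, chr17:34187331-34187555, is shown on the plus strand because it lies before both starts. Also on the plus strand are 120 bases before the Psmb8 start, chr17:34198075-34198194, and 27 bases after the Ifi35 start, chr11:101448413-101448439. Capitals mark matches to TTCNNNGAA, the GAS letters bound by STAT factors, and to GAAANGAAA, a spaced repeat of the GAAA found in sites of IRF factors.
Psmb9 to Tap1: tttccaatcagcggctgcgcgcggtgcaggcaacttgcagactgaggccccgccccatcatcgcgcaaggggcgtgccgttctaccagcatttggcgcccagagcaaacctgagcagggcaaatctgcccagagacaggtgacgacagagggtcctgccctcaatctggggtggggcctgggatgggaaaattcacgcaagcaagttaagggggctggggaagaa
Psmb8: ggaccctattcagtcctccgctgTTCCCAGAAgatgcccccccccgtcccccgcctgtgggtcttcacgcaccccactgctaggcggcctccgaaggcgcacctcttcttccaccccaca
Ifi35: gcagaaTTCACAGAAATGAAAgtggaa

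TTCNNNGAA occurs 97 bases before the Psmb8 start and at base 8 after the Ifi35 start, and was found in 8.30% of all 32851 promoter windows of 300 bases. GAAANGAAA begins at base 14 after the Ifi35 start, overlaps the other match by 3 bases and was found in 3.17% of windows. A pair of GAAA with 2 bases between them, the core of the interferon-stimulated response element (3.44% of windows), had no match in the windows of the 3 genes or of Psmb9. Both strands were searched. The matches describe the letters only.

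Dyes are known from the labels, but the channel on top of each deposited ratio is not. Values are therefore given by dye orientation and in 2 summaries, all as log2 ratios with each array's median subtracted. The mean ratio averages a mouse's 2 arrays. It compares mutant and pool provided that no array's ratio was inverted relative to another's. For the swap component, the Cy3 value of a mouse (mutant labelled Cy3) was subtracted from its Cy5 value and the result divided by 2. This compares mutant with pool provided that every ratio is Cy5 over Cy3. Which of mutant and wildtype was higher is therefore not settled, and signs are those of the deposited values.

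The 8 arrays held 20211 to 20559 usable ratios. The typical distance of a spot from its array's median was 0.361 to 0.486 with the mutant in Cy5 and 0.659 to 0.972 with the mutant in Cy3. Gene names rest on a shift of 11 spots between annotation and values. At that shift the mean ratios of a gene's first 2 spots had a Spearman rho of 0.261 across 2573 genes, against -0.0121 at the same spot number (a description, since genes are not independent). Adarb1, the disrupted gene, had swap components of -1.23 ± 0.163 (moderated SE of limma, n = 4) at spot 18422, -1.33 ± 0.267 at spot 18759 and -0.10 ± 0.127 at spot 14946, and the first 2 passed the test (limma, adjusted p = 0.0383 and 0.0424). Neither call held when any 1 mouse was left out or under any rescaling. The mean ratios of these spots had the opposite sign, at 0.70 ± 0.168, 0.26 ± 0.422 and 0.12 ± 0.174. The first passed (limma, adjusted p = 0.0297) and lost the call as deposited (0.54) and with arrays scaled to one spread (0.34). It also missed the threshold without mouse 2, 3 or 4 (limma, adjusted p = 0.0796, 0.0961 and 0.0933). Read as mutant over pool, the mean ratio would thus put the disrupted gene higher in the mutants, whereas the swap component, read as Cy5 over Cy3, would put it lower. Which part of the transcript these spots cover is unknown here, and a spot outside the disrupted part would check nothing. The table holds ratios and not signal levels, so brain markers could not be checked by level. In whole brain, fewer cells of a type and less RNA per cell cannot be told apart.

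Tap1, the peptide transporter subunit, gave its highest ratios when the mutant was in Cy3. On those arrays it stood at 2.05, 2.28, 1.87 and 1.97 in mice 1 to 4 (mean 2.04 ± 0.173 SD, n = 4). On the Cy5 arrays it stood at 0.38, -0.92, 0.39 and 0.31 (mean 0.04 ± 0.638 SD). The orientations did not overlap, and mouse 2 was the one array below 0. Such a separation was found for 22.3% of the 18797 spots with values on all 8 arrays, and for 16.7% with the Cy3 arrays higher, as for Tap1.

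The mean ratio of Tap1 was 1.04 ± 0.152 (moderated SE, n = 4), a 2.06-fold difference, with the mice at 1.21, 0.68, 1.13 and 1.14. It passed the test over all spots (limma, Benjamini-Hochberg adjusted p = 0.00989) and ranked 598 from the top of 20595. In this quantity 30.4% of spots passed, 17% with a positive and 13.3% with a negative value, so passing the test did not set a gene apart here. It also passed without any 1 of the mice and under each rescaling (0.80 to 1.16).

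The swap component of Tap1 was -1.0 ± 0.176, with the mice at -0.84, -1.60, -0.74 and -0.83 (limma, adjusted p = 0.0383). All mice were negative, and Tap1 ranked 49 from the bottom of 18797 spots, of which 7.84% passed (6.43% negative, 1.41% positive). This call was lost without any 1 of the mice (adjusted p = 0.0991 to 0.162) and under every rescaling. The signs of the summaries are opposite. If all ratios were mutant over pool, Tap1 would be higher in the mutants by the mean ratio. If they were Cy5 over Cy3, it would be lower by the swap component.

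**Figure D1:**
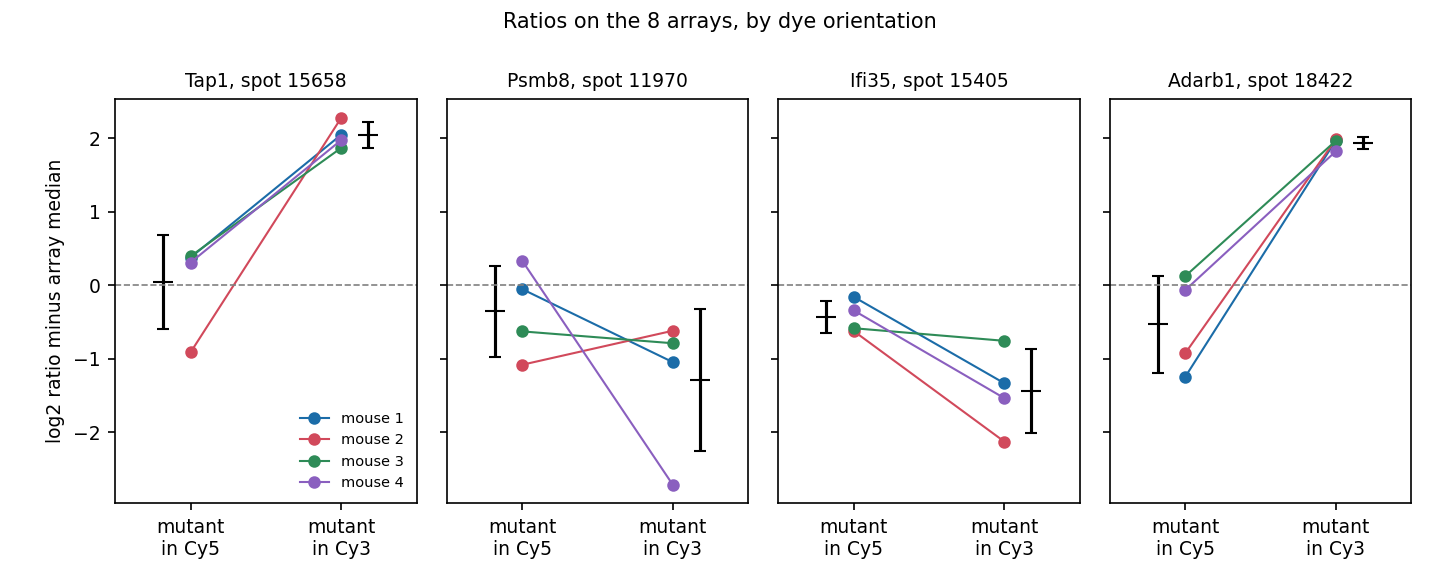
Log2 ratios minus the array median for Tap1, Psmb8, Ifi35 and spot 18422 of Adarb1, with the mutant in Cy5 or Cy3; points are arrays, lines join the arrays of a mouse, and black bars give the mean ± SD of 4 arrays. Spot 18422 was picked as the Adarb1 spot with the lowest unadjusted p in the swap component (limma). At the other Adarb1 spots, 18759 and 14946, the orientations overlapped. Tap1 sits between 1.87 and 2.28 with the mutant in Cy3 and Ifi35 is below 0 on every array, while mouse 4 holds the lowest and the highest value of Psmb8.

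Over the 8 arrays the ratios of Tap1 correlated with those of Adarb1 at r = 0.925 for spot 18422, 0.726 for spot 18759 and 0.28 for spot 14946. All spots share the arrays and their dye orientation, and 7.57% of 11099 named spots had r above 0.9 with Tap1. The 3 most alike were Ly6e, itself an interferon-induced gene (r = 0.996), the ribosomal protein gene Rpl32 (0.993) and the protease inhibitor gene Cstb (0.991). Their means with the mutant in Cy3 were 1.60, 1.36 and 0.75.

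Psmb8, the immunoproteasome subunit, had mostly negative ratios of uneven size. On the Cy3 arrays it stood at -1.05, -0.62, -0.79 and -2.72 (mean -1.29 ± 0.964 SD, n = 4). On the Cy5 arrays it stood at -0.05, -1.08, -0.63 and 0.33 (mean -0.36 ± 0.625 SD). The orientations overlapped, and mouse 4 held both the lowest and the highest of the 8 values.

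The mean ratio of Psmb8 was -0.83 ± 0.159 (moderated SE), a 1.77-fold difference, with the mice at -0.55, -0.85, -0.71 and -1.19. It passed the test (limma, adjusted p = 0.0166). Without mouse 2, 3 or 4 it was -0.82, -0.86 and -0.70 and missed the threshold (adjusted p = 0.0666, 0.0559 and 0.0542). The swap component was 0.47 ± 0.289, with the mice at 0.50, -0.23, 0.08 and 1.53, and did not pass (limma, adjusted p = 0.32). Without mouse 4 it was 0.12.

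Ifi35, the interferon-induced partner of Nmi, was negative on every array. On the Cy3 arrays Ifi35 stood at -1.34, -2.13, -0.76 and -1.54 (mean -1.44 ± 0.566 SD, n = 4), and with the mutant in Cy5 at -0.16, -0.62, -0.59 and -0.34 (mean -0.43 ± 0.218 SD). The orientations did not overlap. Of the spots with 8 values, 8.69% were below the array median on all 8 arrays and 5.63% were lower on every array with the mutant in Cy3 than on any with the mutant in Cy5.

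The mean ratio of Ifi35 was -0.93 ± 0.169 (moderated SE), a 1.91-fold difference, with the mice at -0.75, -1.38, -0.67 and -0.94 (limma, adjusted p = 0.0144). It missed the threshold without mouse 2 or mouse 4 (-0.79 and -0.93, adjusted p = 0.0538 and 0.053) and with blocks of 48 spots centred (-0.59, adjusted p = 0.0681). The median mean ratio of the 47 other spots of its block was -0.38. The swap component was 0.51 ± 0.148, positive in 4 of 4 mice (0.59, 0.75, 0.09 and 0.60), and did not pass (limma, adjusted p = 0.0833). Read as mutant over pool, the mean ratios put Psmb8 and Ifi35 lower in the mutants, opposite to Tap1. Read as Cy5 over Cy3, the swap components, which did not pass, would put both higher.

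Psmb8 and Ifi35 correlated with each other at r = 0.533 over the 8 arrays, and with Tap1 at -0.369 and -0.753, as a description of spots that share arrays. The 3 named spots most like Psmb8 were the collagen gene Col6a2 (r = 0.954), Scube2 (0.952) and Vars, a tRNA synthetase gene (0.951). For Ifi35 they were Slc9a3r1 (0.982), Rpgrip1 (0.979) and Efl1 (0.959). Only 0.153% and 0.27% of the 11099 spots had r above 0.9 with Psmb8 and Ifi35.

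**Figure D2:**
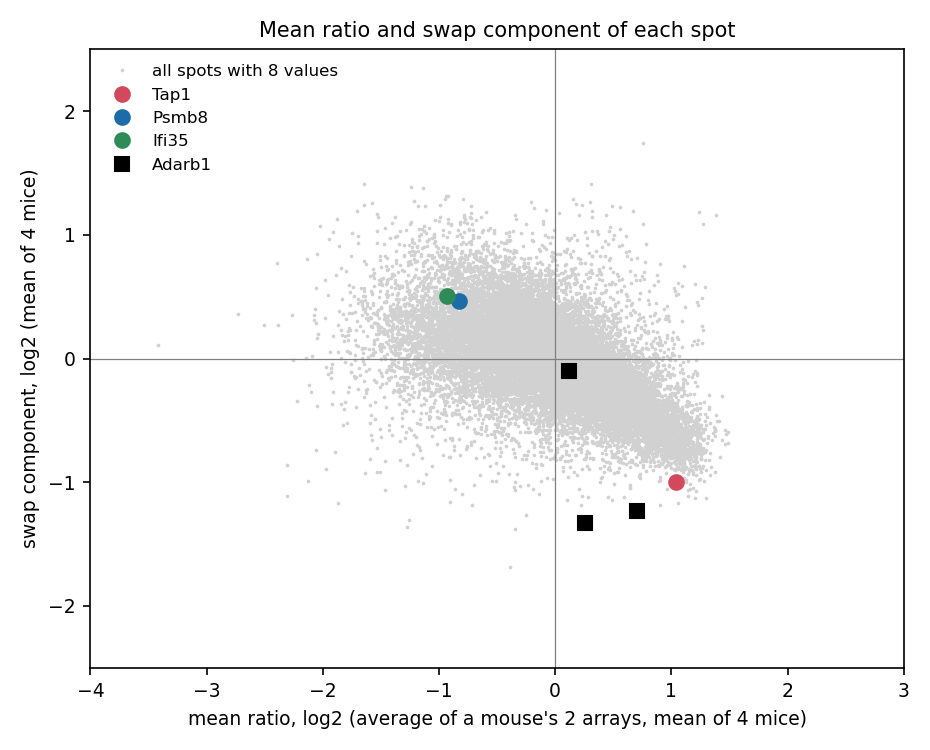
Mean ratio against swap component (log2, array medians subtracted, means of 4 mice) for all spots with 8 values in grey, with Tap1, Psmb8, Ifi35 and the 3 spots of Adarb1. Tap1 (1.04, -1.0) lies at the lower right edge of the cloud, Psmb8 (-0.83, 0.47) and Ifi35 (-0.93, 0.51) lie side by side at the upper left.

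By dye orientation, Tap1, Psmb8 and Ifi35 all passed on the 4 arrays with the mutant in Cy3 (limma, adjusted p = 0.00434, 0.0482 and 0.0119), where 34.3% of 19308 spots passed. Psmb8 missed the threshold there without any 1 of the mice, with arrays scaled to one spread (-1.07) and with blocks of spots centred (-1.10), and Ifi35 without mouse 2 or with blocks of spots centred. None of the 3 passed with the mutant in Cy5 (limma, adjusted p = 0.939, 0.437 and 0.193). There 0% of 19898 spots passed, although 4748 had an unadjusted p below 0.05, Ifi35 among them (unadjusted p = 0.0411). For Tap1 3 of these 4 values were positive and mouse 2 was negative, and the sign of their mean turned with rescaling (-0.02 with arrays scaled to one spread).

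The spot numbers next to the 3 genes bear on the names, which rest on the shift. Spot 15657, before Tap1, has no gene name and a mean ratio of -0.97. Spot 15659, after it, carries Cdh5, an endothelial cadherin, at 0.82. The spots beside Psmb8 stood at 0.02 (Zfp131) and -0.71 (Nploc4), and those beside Ifi35 at -0.56 (Timm50) and 0.45 (no gene name). A name misplaced by 1 spot would thus change the sign for Tap1 in 1 direction, and for Psmb8 and Ifi35 in 1 direction each. At the same spot number, without the shift, the mean ratios would be -1.01 for Tap1, 0.49 for Psmb8 and 0.58 for Ifi35.

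Among 13 spots of 10 of 25 listed class I loading and presentation genes, Tap1 included, 4 passed with a positive mean ratio and 3 with a negative one, with a median of -0.32 beside -0.09 for all spots. Over all spots 17% passed positive and 13.3% negative. The chaperone Calr, which helps assemble class I molecules, stood at 0.89 ± 0.131. Canx, another chaperone of this pathway, was measured by 3 spots that disagreed, at 1.01 ± 0.157, 0.92 ± 0.155 and -1.13 ± 0.216, all past the threshold. H2-K1, a classical class I heavy chain, stood at -0.77 ± 0.143, and the peptide trimming enzyme Erap1 at -1.92 ± 0.497, the latter from 5 of 8 arrays and lost as a call with arrays scaled to one spread, where it stood at -2.35 (adjusted p = 0.092, limma). B2m, the light chain of class I molecules, did not pass at 0.34 ± 0.142, nor did Tapbp, which bridges TAP and class I, at -0.32 ± 0.238. In the swap component, where 6.43% of all spots passed negative, 4 of 9 spots of this list passed, all negative. They were Tap1, 2 spots of Canx (-0.65 and -0.61) and the class I-like H2-Q10 (-0.94).

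Psmb9, which shares the start region with Tap1, had a mean ratio of 0.05 ± 0.356 and a swap component of -0.03, neither past the threshold. Its mice spread widely, from -1.20 in mouse 1 to 0.81 in mouse 3. Of the 6 immunoproteasome and activator genes, 1 spot each, Psmb8 passed negative and Pomp, the chaperone of proteasome assembly, passed positive (0.72 ± 0.166). Over all spots 30.4% passed in either direction. Psmb10, Psme2 and Psme1 stood at -0.29, -0.28 and -0.05 without passing.

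Spots of the list named constitutive 20S proteasome had positive mean ratios, opposite in sign to Psmb8. Most of these subunits also belong to the immunoproteasome, and only Psmb5, Psmb6 and Psmb7 are exchanged there. The list is therefore no contrast of the constitutive form with the immunoproteasome. Of 15 spots of 13 of the list's 14 genes, 10 passed with a positive mean ratio and none with a negative one, with a median of 0.69. Over all spots 17% passed positive and 13.3% negative. Psma6 stood at 1.06 ± 0.168 and Psmb4 at 0.86 ± 0.139. Psmb5, the subunit that Psmb8 replaces, stood at 0.58 ± 0.163 (adjusted p = 0.0463, limma), and lost the call as deposited, with arrays scaled to one spread and with blocks of spots centred (0.41, 0.53 and 0.31). A spot of Psmb6 passed at 0.60 ± 0.165 and lost the call under the same rescalings (0.44, 0.52 and 0.11). Its other spot (0.40) and Psmb7 (0.34) did not pass. All 15 spots had a negative swap component (-0.50 to -0.14), where 47.2% of all spots were positive, and none of the 15 passed.

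Interferon-stimulated genes, 24 spots of 22 of 59 listed genes with Ifi35 among them, had no positive and 4 negative calls in the mean ratio and a median of -0.44, where 13.3% of all spots passed negative and 17% positive. As deposited the list had 0 positive and 6 negative calls, and with blocks centred 1 and 3. Ifi27l2a, an interferon-induced mitochondrial protein gene, stood at -0.94 ± 0.196, and lost the call with blocks centred (-0.59). Nmi, the binding partner of Ifi35, stood at -0.89 ± 0.226 and the antiviral membrane protein gene Ifitm3 at -0.77 ± 0.22, both named here after their values were seen. Ifitm3 lost the call with arrays scaled to one spread (-0.80) and with blocks centred (-0.65). The other 20 spots did not pass, and the list ran from -2.28 to 0.63. Its ends were Igtp, a GTPase gene, and Ifitm2, a relative of Ifitm3, neither past the threshold and both named after their values were seen. Ly6e was not in the list. No spot of this list passed in the swap component, of 20 tested.

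Among 8 spots of 6 genes that sense or act on double-stranded RNA, Adar passed positive (0.67 ± 0.134) and 1 of 2 spots of the kinase gene Eif2ak2 passed negative (-0.51 ± 0.133, the other at -0.27), beside 30.4% of all spots passing in either direction. The call of Eif2ak2 was lost with arrays scaled to one spread (-0.33). Among 21 spots of 15 genes of interferon receptors and signalling, the kinase genes Tyk2 (1.14 ± 0.181) and Jak1 (0.68 ± 0.131) passed positive at 1 spot each. Other spots of Tyk2 (-0.62 and -0.50) and Jak1 (-0.38) did not pass. The other 19 spots of this list did not pass, and ran from -0.86 at the transcription factor gene Irf9 to 0.63 at a spot of the receptor gene Ifnar2. With blocks centred the list had 2 positive calls and 1 negative. In the swap component 1 of 18 spots of this list passed, Tyk2 at -0.58, and none of 6 in the double-stranded RNA list, beside 7.84% of all spots.

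Class II presentation genes gave 1 call among 9 spots of 6 genes, a negative one at a spot of the peptide exchange factor gene H2-DMb1 (-1.38 ± 0.182), whose other spot stood at 0.40. With blocks centred the list had 2 positive calls and 1 negative. Over all spots 30.4% passed.

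**Figure D3:**
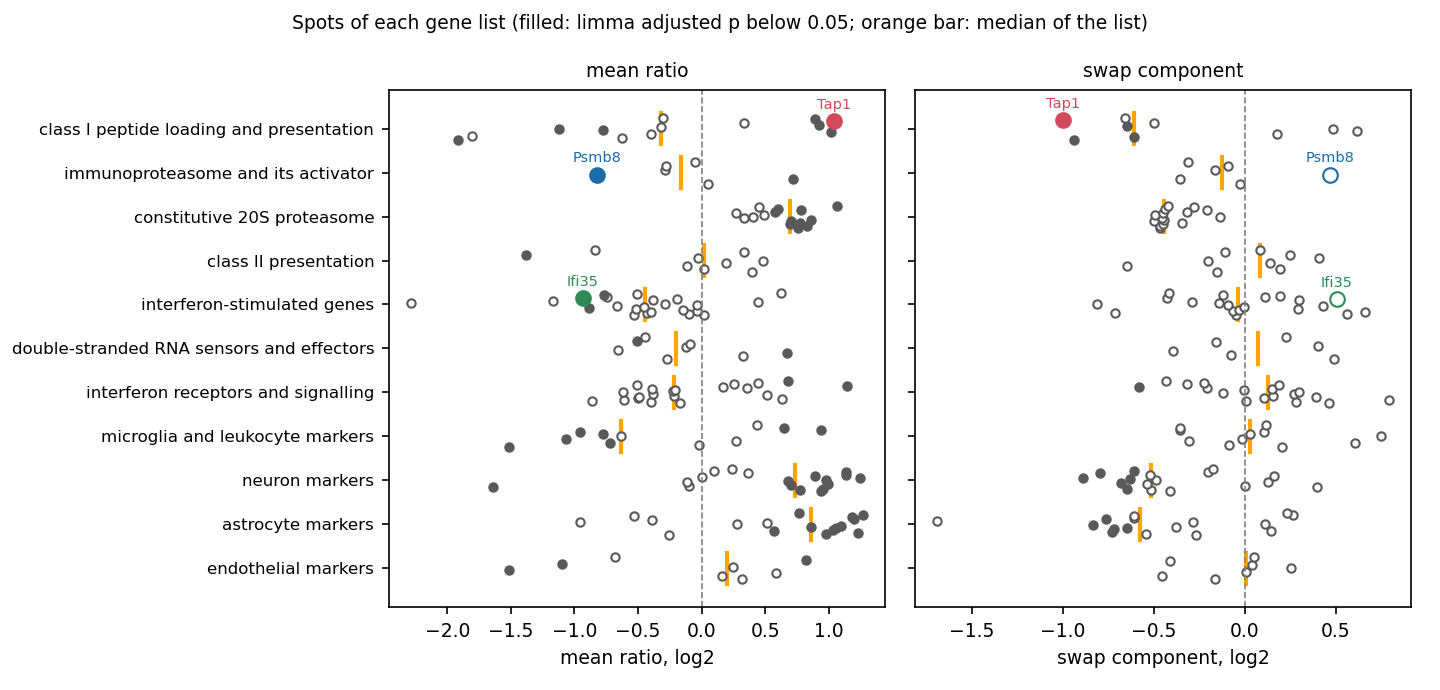
Mean ratio (left) and swap component (right), log2, of every tested spot of each gene list; filled points passed limma at an adjusted p below 0.05, the orange bar is the median of the list, and the 3 genes described are coloured. Interferon-stimulated genes hold 4 filled points, all negative, and the constitutive proteasome 10, all positive.

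Markers of cell types also gave calls in these quantities, and their part in the values of Tap1, Psmb8 and Ifi35 was not tested. Over all spots 30.4% passed in the mean ratio, 17% positive and 13.3% negative. Of 12 spots of 10 microglia and leukocyte genes 11 were tested, and 2 passed positive and 5 negative in the mean ratio. The spot of Tyrobp had no value in mouse 4 and was not tested (-4.4, -2.8 and -0.35 in mice 1 to 3). C1qb and Lyz2 stood at 0.94 and 0.65, and S100a8 and Ptprc at -1.51 and -1.06. Trem2 (-0.77) and another spot of Ptprc (-0.72) also passed negative, while C1qa (-0.02) and C1qc (0.27) did not pass. These were named after their values were seen. With blocks of spots centred the list had 0 positive and 3 negative calls. C1qb then stood at 0.31 and Lyz2 at 0.069, and Aif1, negative at -0.96 before and named after its values were seen, at -0.17, none of them past the threshold. Lyz2 also lost its call as deposited (0.49). Another spot of Lyz2 (-0.64) did not pass. Of 18 neuron marker spots 11 passed positive and 1 negative, led by the vesicle protein genes Syt1 (1.25) and Syp (1.13), with Gad1 at -1.64. Other spots of Syt1 (-0.12 and 0.01) and Gad1 (0.10) did not pass. Of 17 astrocyte spots 11 passed positive, led by Glul (1.27 and 1.23), and none negative. Endothelial markers gave 1 positive call, Cdh5 (0.82), and 2 negative ones of 8, Pecam1 (-1.51) and Eng (-1.10, with another spot at 0.58).

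Values by dye orientation are given side by side for 1 spot of each gene, the one past the threshold. On arrays with the mutant in Cy3, Syt1 stood at 2.13, Syp at 1.93, Slc1a2 at 1.96 and Tap1 at 2.04. On the opposite arrays they stood at 0.36, 0.34, 0.44 and 0.04. Other spots of Slc1a2 did not pass, with mean ratios of 0.28, 0.51 and -0.39. With the mutant in Cy3 they stood at 0.16, 0.80 and 1.30, and with the mutant in Cy5 at 0.39, 0.23 and -2.08. The other spots of Syt1 stood at -0.25 and -0.15 with the mutant in Cy3. In the swap component 6 of 17 neuron spots and 5 of 16 astrocyte spots passed, all negative, with Syt1 at -0.89 and Sparcl1 at -0.83. Over all spots 6.43% passed with a negative swap component. No microglia or endothelial spot passed there. All 18 swap calls among the listed genes and Adarb1, Tap1 included, were lost under each rescaling, and none changed sign.

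**Figure D4:**
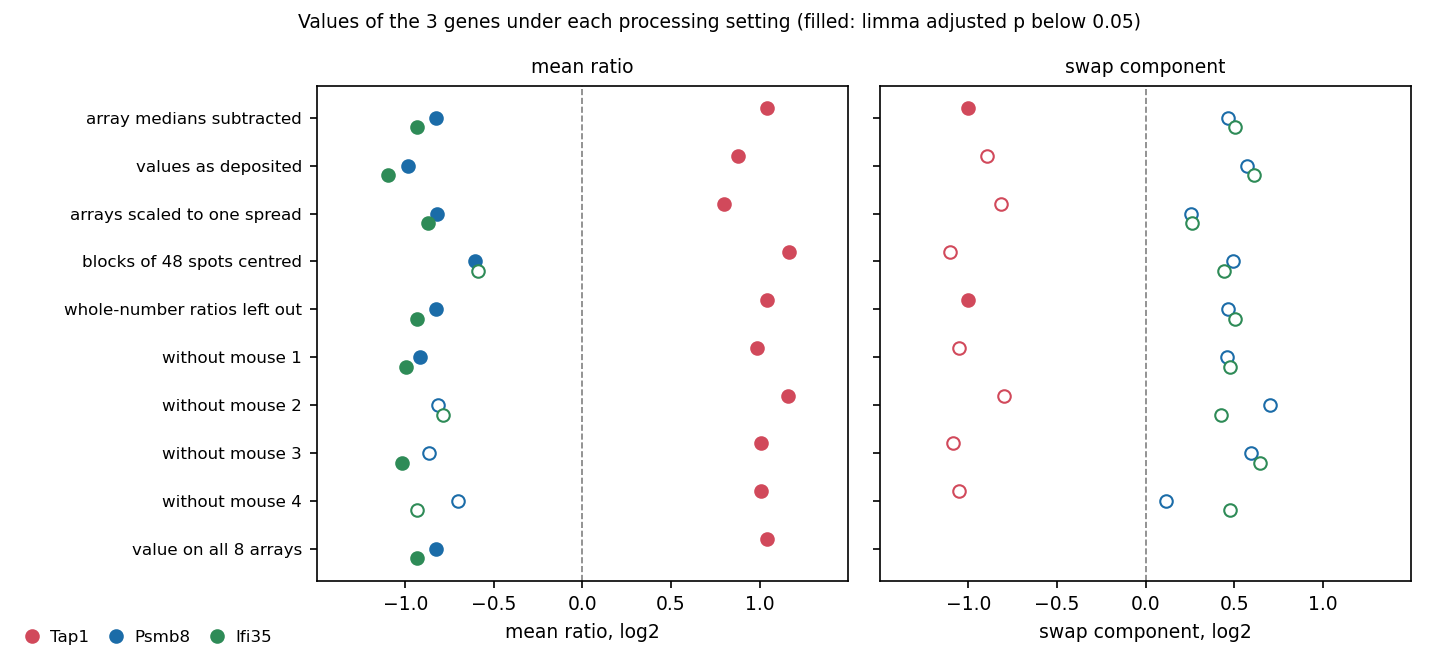
Mean ratio (left) and swap component (right), log2, of Tap1, Psmb8 and Ifi35 under each processing setting, with filled points past an adjusted p of 0.05 (limma). Tap1 is filled in all 10 settings of the mean ratio and in 2 of 9 of the swap component, and no gene changes sign.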

How the data were processed

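Per the labels' protocols, cDNA from column-purified total RNA was coupled to Cy3 or Cy5 after synthesis and put on 2-colour arrays. The scanner, the background correction and any scaling between channels are unknown here. The deposited values behave as log2 ratios shifted by 1 constant for each array, which was inferred from the values. Their centring and numerator stay unknown. The median of the deposited log2 ratios was -0.57 to -0.0045. Values that code an empty denominator (1 to 30 per array) and empty cells (221 to 553) were missing.

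Each array's median was subtracted. An intercept-only model in limma 3.58.1 (lmFit, eBayes; R 4.3.3) set 4 mouse values against 0, with Benjamini-Hochberg adjustment over all spots and a threshold of 0.05. A mouse with 1 missing array entered the mean ratio with the other. The fit was tested on simulated data. Annotation of the last 640 annotated spots was not used. The 12131 named spots carry symbols of the RefSeq table (GRCm38.p6). Gene lists were taken whole, and of each list were named all calls (class I, immunoproteasome, double-stranded RNA and signalling lists) or at most 2 per direction. Further spots were named as other spots of a gene, for their role, or after their values were seen. Members and lists were chosen with earlier results of these data known. Alternatives were deposited values, arrays scaled to one spread, blocks of 48 spots centred, ratios of whole numbers up to 10 left out (none of the values of the 3 genes), spots with 8 values, unshifted names, and each mouse left out.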

Additional observations from a re-analysis of the deposited data

Results flagged for a closer look

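Tap1 in mouse 2 stood apart from the other mice in 3 of the 12 sets of 4 values examined. Its value with the mutant in Cy5 was -0.92, where the other mice lay between 0.31 and 0.39. Its mean ratio was 0.68 and its swap component -1.60. These 3 values share the same array. Chance sets apart about 1 in 20 such groups. Without mouse 2 the mean ratio of Tap1 was 1.16 and the swap component -0.80.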

How the results depend on the processing

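The mean ratios of Tap1, Psmb8 and Ifi35 kept their sign under every rescaling, filter and omission of a mouse, and Ifi35 lost its call with blocks of 48 spots centred (-0.59). Leaving out each mouse gave 0.98 to 1.16 for Tap1, -0.92 to -0.70 for Psmb8 and -1.02 to -0.79 for Ifi35. The swap component of Tap1 lost its call as deposited (-0.89), with arrays scaled to one spread (-0.82), with blocks centred (-1.11) and without each mouse (-1.09 to -0.80). With names read at the same spot number, without the shift, the mean ratio turned for Tap1 (-1.01), Psmb8 (0.49) and Ifi35 (0.58), the swap component turned for Psmb8 (-0.21) and Ifi35 (-0.0451), and that of Tap1 was -0.0047 and no longer past the threshold. Those are other spots.

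The number of spots called in the mean ratio fell from 6256 to between 2483 and 3931 without a mouse. As deposited 37.4% of the calls were positive, against 56.1% with medians subtracted, and the median of all spots was -0.25 in place of -0.09. In the swap component 1473 calls became 0 as deposited, with arrays scaled and with blocks centred, and lay between 0 and 0 without a mouse (limma; 5785, 3815 and 4958 spots at an unadjusted p below 0.05, and 4106 to 5417 without a mouse). With the mutant in Cy5 the count rose from 0 to 414 with whole-number ratios left out, where 15585 spots were tested. With the mutant in Cy3 it moved from 6625 to between 3006 and 4973 without a mouse.

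With the mutant in Cy5 the near-zero mean of Tap1 turned as deposited (-0.0147), with arrays scaled (-0.0157) and without a mouse (-0.0777 to 0.36). Spot 14946 of Adarb1 turned in the mean ratio as deposited (-0.0445) and without a mouse (-0.0323 to 0.22), in the swap component as deposited (0.0078), with the mutant in Cy5 as deposited (-0.0367), with blocks centred (-0.0262) and without a mouse (-0.0882 to 0.12), and with the mutant in Cy3 as deposited (-0.0523). Spot 18759 turned in the mean ratio with arrays scaled (-0.12) and without a mouse (-0.0704 to 0.79). Of 62 calls in the lists and Adarb1 for the mean ratio, 7 to 14 were lost under each rescaling, and of 18 calls in the swap component all 18. None changed sign. The causes were not tested. No paired analysis was possible because the study has 1 group, the mouse being already the unit. With ratios alone, spots near background cannot be told from bright ones.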
